A study of Mus musculus with 6 samples.

Results

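The endothelial cells described here are those of the mouse lung that carried much von Willebrand factor mRNA (*Vwf*). They were selected on measured UMI counts, a UMI being a tag that marks 1 captured transcript. A kept cell barcode had at least 500 genes, at least 1000 UMIs, and less than 15% of its UMIs from mitochondrial genes. An endothelial gate then took kept barcodes with UMIs of at least 3 of the 4 endothelial genes *Pecam1*, *Cdh5*, *Cldn5*, and *Egfl7* and with no UMI of *Ptprc* (leukocytes), *Lamp3* (type 2 alveolar epithelial cells, AEC2s), *Col1a2* (fibroblasts), or *Foxj1* (ciliated cells). Of these gated cells, those with at least 3 *Vwf* UMIs and no UMI of *Prox1*, the lymphatic transcription factor, are called Vwf-high cells. There were 1379 of them among 2320 gated cells, 44096 kept barcodes, and 88578 deposited barcodes. The remaining 932 gated cells with fewer than 3 *Vwf* UMIs served as the comparison, and 9 cells with at least 3 *Vwf* UMIs and a *Prox1* UMI entered neither population.

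Lung cells of mice backcrossed to C57BL/6J for more than 6 generations were depleted of CD45+ cells with magnetic beads, and 6 libraries of 3′ transcript tags (10x Genomics) were prepared from mice aged 10 to 12 weeks, 2 weeks after 4 doses of tamoxifen. Of these, 2 libraries are labelled Zip8 knockout, from the Zip8AEC2 line (SFTPC-CreER Rosa26-tdTomato Zip8 fl/fl), and 4 are labelled control, which the methods describe as littermates. For organoid cultures the methods name mice with the same Cre and reporter and no floxed *Slc39a8* as the control, but the alleles of the sequenced controls are not given in the sources used here. Cre was driven by SFTPC, a surfactant gene of AEC2s, so that endothelial cells are not the cells in which the zinc importer ZIP8 (*Slc39a8*) was meant to be deleted. The number of mice behind each library is not given in the sources used here, and p-values therefore measure the spread between libraries.

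Von Willebrand factor is a large glycoprotein that endothelial cells make and store in Weibel-Palade bodies, from which it is secreted to tether platelets and to carry coagulation factor VIII. Among lung vessels its mRNA is best known from arteries, veins, and the larger vessels that join them to the capillary bed, whereas the capillary cells spread over the alveoli, in particular those called aerocytes, carry little of it. Arterial endothelium is characterized by Notch and ephrin-B2 signaling and by connexin 40 (*Gja5*), and venous endothelium by the transcription factor COUP-TFII (*Nr2f2*) and the receptor EphB4.

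The Vwf-high cells numbered 181, 337, 222, and 374 in control libraries 1 to 4 and 129 and 136 in the libraries labelled knockout 1 and 2. Their summed UMIs ranged from 649124 to 2093319 per library, out of library totals of 93852253 to 118771907. The median Vwf-high cell held 3762 UMIs and 1726 genes, compared with 2868 UMIs and 1470 genes in the other gated cells. Levels are given as CPM, that is, a gene's UMIs per 1000000 UMIs of the summed cells of a library, scaled by TMM factors within each fit. Unscaled CPM lack the TMM factors.

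Some libraries stood apart. The summed red blood cell genes (hemoglobins and *Alas2*) in the Vwf-high cells were at 39, 312, 11.6 and 13031 CPM in the controls and 9.67 and 9.49 CPM in the libraries labelled knockout, and in control library 4 *Hbb-bs* had UMIs in 176 of its 374 Vwf-high cells. The library labelled knockout 1 had the most smooth muscle RNA, with *Acta2* at 71.5, 12.5, 88.1 and 81.4 CPM in control libraries 1 to 4 and 566 and 60.1 CPM in the libraries labelled knockout 1 and 2, but 328 of its 351 *Acta2* UMIs lay in 3 cells. The same library had *Cd74*, the invariant chain of class II histocompatibility molecules, at 1470.3 CPM, compared with 149 to 333 CPM in the other 5. There *Cd74* UMIs were in 74.4% of Vwf-high cells, against 30.0% to 42.6% elsewhere. *Cd74* also had UMIs in 99.4% of the reference AEC2s described below. Of the 9 listed leukocyte genes, 7 were under 10 CPM, with *Cd3e* and *Cd79a* at 0 in the Vwf-high cells of all 6 libraries. The most abundant was *Cd74*. *Lyz2* had UMIs in 63.1% of Vwf-high cells and in 99.97% of reference AEC2s. In the other gated cells the 9 genes summed to 451, 173, 393 and 757 CPM in the controls and 1017 and 573 CPM in the libraries labelled knockout. The source of these UMIs was not tested. The 8 platelet genes summed to at most 19.3 CPM in any library, with *Ppbp* and *Treml1* at 0. Barcodes found in more than 1 library made up 3387 kept barcodes, among them 16 Vwf-high cells, and 2 barcodes passed the gate in more than 1 library.

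In the study ZIP8 was the targeted gene. In reference AEC2s (kept cells with at least 3 *Lamp3* UMIs and no UMI of the 4 endothelial genes), *Slc39a8* was at 206, 204, 192, and 219 unscaled CPM in control libraries 1 to 4 and at 210.1 and 194 unscaled CPM in the libraries labelled knockout 1 and 2. The labelled groups overlapped. Which exons were deleted is not given in the sources used here, and counts of 3′ tags would not show a deletion upstream of the tag, so that these values do not check the labels. In Vwf-high cells *Slc39a8* (chr3:135825279-135888572, plus strand, GRCm38) was low, with 20, 32, 11, and 17 UMIs in the controls and 5 and 6 UMIs in the libraries labelled knockout. Its log2 fold change there was -0.85 ± 0.49 (SE, adjusted p = 0.929 by edgeR's quasi-likelihood test). It had a UMI in 5.66% of Vwf-high cells and in 85.1% of reference AEC2s, whose median depth was 12609 UMIs. The AEC2 gene *Sftpc* had UMIs in 98.8% of Vwf-high cells and in 98.5% of the other gated cells. Whether this came from free RNA or from doublets was not tested. The summed level of 8 AEC2 genes in Vwf-high cells was 4500.3, 1149, 2392 and 4706 CPM in the controls and 2517 and 1944 CPM in the libraries labelled knockout.

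*Vwf* (chr6:125546774-125686679, plus strand, GRCm38) split the gated cells into those with little and those with much. Of the 2320 gated cells, 787 had no *Vwf* UMI, 92 had 1, and 53 had 2, while 557 had 20 to 49 and 152 had 50 or more. *Vwf* was at 5424, 5804, 5471 and 5706 CPM in control libraries 1 to 4 and 4735 and 5492 CPM in the libraries labelled knockout 1 and 2 in the Vwf-high cells, and at 37.5 to 106 CPM in the other gated cells, a contrast that the selection itself sets. Cells just inside the threshold, with 3 *Vwf* UMIs, numbered 33 and had a median of 1871 UMIs, and those just outside, with 2, numbered 53 and had a median of 2013 UMIs. *Ptprb* had UMIs in 93.9% of the former and 94.3% of the latter, and the lymphatic gene *Mmrn1* had UMIs in 0% and 1.89% (0 and 147 CPM), against 71.0% of the 787 cells without *Vwf*. *Prss23* had UMIs in 27.3% and 17.0% (260.3 and 60.3 CPM) and *Vcam1* in 21.2% and 26.4% (231 and 1970 CPM).

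**Figure D1:**
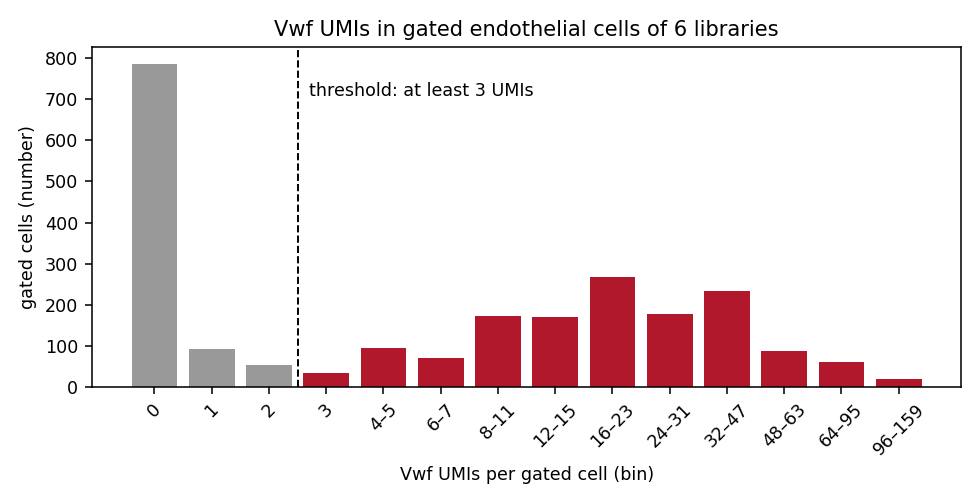
Number of gated endothelial cells (y axis) by their number of *Vwf* UMIs (x axis, bins of unequal width), over all 6 libraries. The dashed line marks the threshold of 3 UMIs, grey bars hold the cells below it, and red bars those at or above it, including the 9 cells left out for a *Prox1* UMI. The bars fall from 787 cells without a *Vwf* UMI to 34 cells with 3, and the bins above 3 UMIs span several values, so that their heights are not comparable with the single values on the left.

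Of the 4 genes taken as markers of these cells, *Vwf* defined them and *Ptprb*, the vascular endothelial protein tyrosine phosphatase VE-PTP, was found in nearly all of them. *Ptprb* was at 2762, 2856, 2790.5 and 2665 CPM in control libraries 1 to 4 and 2307 and 2729 CPM in the libraries labelled knockout 1 and 2, compared with 393 to 725 CPM in the other gated cells, and it had a UMI in 99.0% of Vwf-high cells (2.19% of reference AEC2s). *Ctla2a*, a cysteine protease inhibitor, was at 1856 to 2543 CPM against 523 to 1018 CPM. The populations did not overlap for either gene. Against the blood-vessel cells described next, however, none of the 3 markers besides *Vwf* passed the log2 fold change of 1, with *Ptprb* at 0.95, *Ctla2a* at 0.27, and *Aqp1* at 0.67. *Aqp1*, the water channel aquaporin 1, was at 1746, 1568, 1875 and 2503 CPM in control libraries 1 to 4 and 1594 and 1703 CPM in the libraries labelled knockout 1 and 2 in Vwf-high cells and at 1275 to 1929 CPM in the other gated cells, ranges that overlap. *Aqp1* therefore did not set the Vwf-high cells apart as a whole.

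The contrast between the Vwf-high and the other gated cells is described here and not tested, because *Vwf* divided the cells of each library. A gene was counted as higher or lower when edgeR's quasi-likelihood fit, with the library as a block, put its log2 fold change at 1 or more, or at -1 or less, with an adjusted p under 0.05. By this rule 569 of 7872 genes (7.23%) were higher and 538 (6.83%) were lower. Many of the other gated cells carried lymphatic genes. A UMI of *Prox1*, *Mmrn1*, *Reln*, *Pdpn*, or *Thy1* was found in 64.9%, 78.9%, 72.6%, and 50% of them in the controls and in 56.8% and 57.0% in the libraries labelled knockout, while 0, 11, 3, and 12 Vwf-high cells of the controls and 2 and 1 of the libraries labelled knockout had one. A further comparison, chosen after the values were seen, therefore used the other gated cells without these lymphatic genes, called blood-vessel cells here for that absence only, which numbered 47, 42, 31, and 112 in the controls and 76 and 37 in the libraries labelled knockout. Their levels are scaled in a fit of their own. Against them 491 of 6021 genes (8.15%) were higher and 267 (4.43%) were lower. The list counts below are to be read beside these shares of each comparison, since a small count in a short list can be near them.

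Venous genes were higher in both comparisons. Of 12 listed venous genes that could be fitted, 10 were higher than in the other gated cells and 1 was lower, with a median log2 fold change of 4.16, compared with 0.02 over all genes. Against the blood-vessel cells all 12 were higher, with a median of 3.46, compared with 0.10 over all genes. The gene lists were chosen with earlier results of these data known, so that such counts describe the cells and do not test their identity. *Slc6a2* (chr8:92960079-93001667, plus strand, GRCm38), the noradrenaline transporter, was at 125, 334, 424 and 810.2 CPM in control libraries 1 to 4 and 74.2 and 511 CPM in the libraries labelled knockout 1 and 2. In the other gated cells it was at 0 to 8.73 CPM, on 6 UMIs in all. It had UMIs in 38.7% of Vwf-high cells, 0.429% of the other gated cells, and 0.537% of reference AEC2s, which were deeper. The level of *Slc6a2* varied widely between the libraries, and was low in control library 1 and in the library labelled knockout 1.

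*Vcam1*, the vascular cell adhesion molecule that leukocytes bind, was at 992, 2153, 1922 and 1071 CPM in control libraries 1 to 4 and 2155 and 1692 CPM in the libraries labelled knockout 1 and 2, compared with 5 to 436 CPM in the other gated cells. Every Vwf-high value lay above every value of the other gated cells. *Bst1*, an ectoenzyme and adhesion molecule, was at 168 to 294 CPM against 0 to 9.05 CPM, and the carbonic anhydrase-related gene *Car8* was at 334 to 449 CPM against 11 to 27.1 CPM. *Car8* is also an AEC2 gene in these data, with UMIs in 94.1% of reference AEC2s. It had UMIs in 56.5% of Vwf-high cells and 5.26% of the other gated cells, and the part of AEC2 RNA in its level was not tested. *Nr2f2* was at 176 to 279 CPM in Vwf-high cells. It was higher in the other gated cells, at 379.7 to 542 CPM, but at 19.2 CPM in the blood-vessel cells among them. COUP-TFII is known in lymphatic as well as in venous endothelium.

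Arterial genes were present in the same population. Of 14 listed, 9 were higher than in the other gated cells and none was lower (median log2 fold change 1.49), and against the blood-vessel cells 7 were higher and none was lower (median 0.79). *Gja5* (chr3:96904693-97077416, plus strand, GRCm38) was at 134, 145, 213 and 103 CPM in control libraries 1 to 4 and 126 and 119 CPM in the libraries labelled knockout 1 and 2, compared with 1.94 to 8.73 CPM. The matrix Gla protein gene *Mgp*, whose product restrains calcification of the vessel wall, was at 4144, 5155, 7404 and 3525 CPM in control libraries 1 to 4 and 4290.0 and 4689 CPM in the libraries labelled knockout 1 and 2, compared with 218 to 706 CPM. Both genes separated the populations in every library. The serine protease *Htra1* was at 106 to 214 CPM against 2.76 to 17.5 CPM, and the Wnt inhibitor *Dkk2* at 46.8 to 101 CPM against 0 to 10.9 CPM. The Notch ligand *Dll4* was not among the higher genes (log2 fold change -0.62), and neither was *Sox17* (0.91).

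Of 11 aerocyte genes fitted against the other gated cells 10 were lower (median log2 fold change -3.17), and against the blood-vessel cells all 12 were lower (median -5.04). The list still summed to 795 to 1111 CPM in Vwf-high cells, led by *Cyp4b1* at 258 to 508 CPM (UMIs in 56.4% of cells) and *Kdr* at 263 to 379 CPM (57.5%), while 6 of its genes were under 10 CPM. In reference AEC2s, which were deeper, these 2 genes had UMIs in 17.0% and 4.59% of cells. The part of free RNA in their levels was not tested. *Car4*, a membrane carbonic anhydrase, was at 0, 0.5, 0.89 and 2.57 CPM in control libraries 1 to 4 and 21 and 0 CPM in the libraries labelled knockout 1 and 2, compared with a mean of 1468 CPM in the blood-vessel cells. *Apln*, the apelin ligand, had 1 UMI in all Vwf-high cells together. Genes of general capillaries differed by comparison. Against the other gated cells 3 of 10 were higher and 1 was lower (median 0.25), whereas 7 were lower than in the blood-vessel cells and none was higher (median -1.46), among them *Kit* at 4.74 to 45.4 CPM against a mean of 402 CPM. *Gpihbp1*, which carries lipoprotein lipase to the capillary lumen, was lower but not absent, at 256 to 587 CPM against a mean of 934 CPM. *Plvap* and *Cd93*, placed on the same list, were at 903 to 1417 CPM and 900.4 to 1025 CPM and did not pass the rule against the blood-vessel cells.

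**Figure D2:**
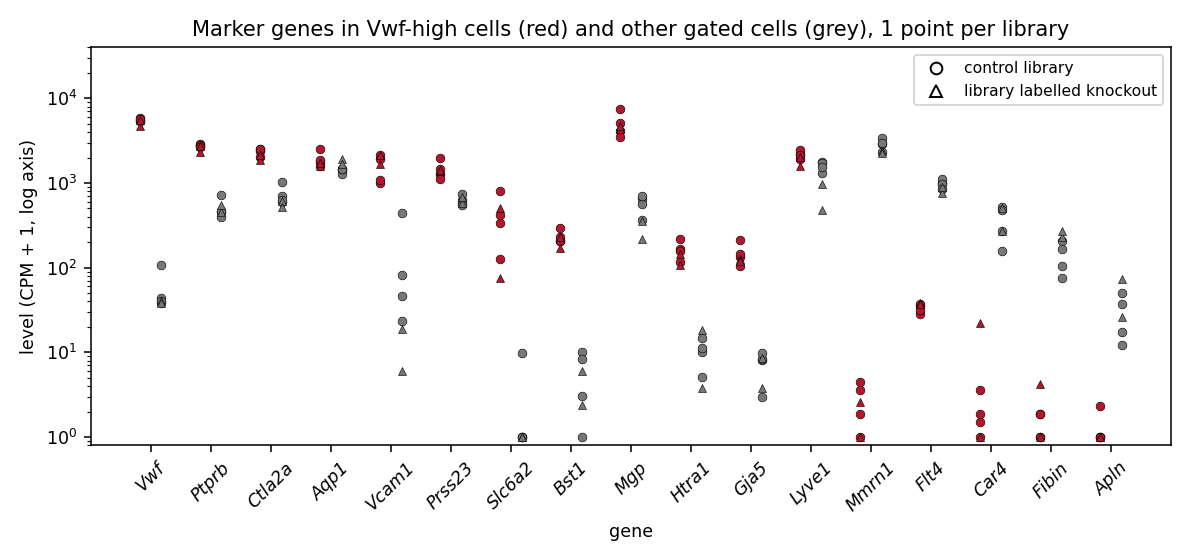
Level of each marker gene (x axis) as CPM + 1 on a log y axis, with 1 point per library. Red points are Vwf-high cells and grey points the other gated cells, circles are control libraries, and triangles are libraries labelled knockout. Venous and arterial genes from *Vcam1* to *Gja5* lie higher in red, *Aqp1* overlaps, and *Mmrn1*, *Car4*, *Fibin*, and *Apln* lie near the foot of the axis in red.

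Of the 9 listed lymphatic genes, 8 were lower in the Vwf-high cells than in the other gated cells and 5 were under 10 CPM. *Mmrn1* was at 0 to 3.5 CPM against 2279 to 3417 CPM, and the chemokine gene *Ccl21a* at 3.22 to 19 CPM against 16874 to 20481 CPM. *Reln* had 3 UMIs in all Vwf-high cells and *Thy1* had 2. *Flt4* was at 27.3 to 37.1 CPM and *Sned1* at 17.7 to 39.4 CPM, with UMIs in 12.8% and 12.2% of Vwf-high cells. The gene that was not lower was *Lyve1* (chr7:110850607-110863239, minus strand, GRCm38), the hyaluronan receptor widely used to mark lymphatic vessels. It was at 1939, 2229.8, 2477 and 2136 CPM in control libraries 1 to 4 and 1575 and 2023 CPM in the libraries labelled knockout 1 and 2 in Vwf-high cells, compared with 484 to 1786 CPM in the other gated cells. It had a UMI in 92.0% of Vwf-high cells, 53.2% of the other gated cells, and 1.54% of reference AEC2s. *Lyve1* did not pass the rule against all other gated cells (log2 fold change 0.76) and was higher than in the blood-vessel cells (2.00). Of 3 lymphatic genes fitted against the blood-vessel cells, *Lyve1* and *Sned1* (1.38) were higher.

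By its markers the population held venous and arterial genes together, with *Lyve1* abundant and aerocyte genes reduced but not all absent. The caliber of the vessels was not measured, and the cells are called by the gene that selected them.

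The leading genes of the contrast were taken as the 15 of smallest p in each direction among those with at least 20 CPM and the same sign in 6 of 6 libraries. The higher genes included *Cd200*, an immunoglobulin family glycoprotein that restrains myeloid cells, at 959 to 1211 CPM against 187 to 239 CPM, and *Cytl1*, a secreted cytokine-like protein, at 1374 to 2172 CPM against 6.89 to 74.2 CPM. The carboxypeptidase *Cpe*, which trims peptide hormones, was at 673 to 1285 CPM against 23.3 to 95.7 CPM. *Heg1*, a transmembrane partner of the cerebral cavernous malformation proteins, was at 653 to 917 CPM against 81.3 to 163 CPM. The rest of the higher genes were *Ccdc80*, *Amigo2*, *Fam198b*, *Jam2*, *Ctsh*, and AU021092 besides *Slc6a2*, *Bst1*, *Car8*, *Ptprb*, and *Gja5*, with fitted log2 fold changes over the 15 from 2.35 (*Cd200*) to 7.81 (*Slc6a2*). The lower genes were led by *Ccl21a*, *Mmrn1*, *Flt4* (the VEGF-C receptor), *Maf*, *Thy1*, *Reln*, and *Sema3d*, all known from lymphatic endothelium, and also held *Fxyd6*, *Pcsk6*, *Pgf*, *Itih5*, *Gja1*, *Gng11*, *Meox1*, and Gm21541. *Ccl21a* and Gm21541 belong to a cluster of near-identical copies, among which reads can be split, and their counts are uncertain. *Gng11* was lower than in the other gated cells (-2.69) but close to the blood-vessel cells (0.00503).

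Against the blood-vessel cells, the leading higher genes were in part different. *Prss23*, a secreted serine protease, was at 1115 to 1961 CPM against a mean of 62.3 CPM, and *Fgl2*, a membrane prothrombinase, had a log2 fold change of 6.23 with only 5 UMIs in the blood-vessel cells. Genes of elastic fibre proteins were among them, with *Fbln5* at 3.59 and *Fbln2* at 3.07, as was *Ltbp4*, which binds latent TGF-β. The higher genes also included *Cpe*, *Slc6a2*, *Cyr61*, *Fabp4*, *Ctsh*, *Car8*, *Rnd1*, *Cytl1*, and *Ptgs2*. The lower genes were led by *Igfbp7* (log2 fold change -5.71), *Fibin*, *Car4*, *Emp2*, *Hopx*, and *Scn7a*, and also held *Ednrb*, *Tbx2*, *Prx*, *Chst1*, *Ptp4a3*, AW112010, *Kitl*, *Apln*, and *Pmp22*. Of these 15, 9 are on the aerocyte list.

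Of 14 genes of Weibel-Palade body cargo and secretion, 4 were higher than in the other gated cells and 3 were lower (median log2 fold change 0.15). Against the blood-vessel cells 5 of 12 were higher and 1 was lower (median 0.24). *Selp*, which encodes P-selectin and is stored beside von Willebrand factor, was at 134 to 476 CPM against 1.94 to 13.1 CPM, highest in the library labelled knockout 1. *Edn1*, the vasoconstrictor endothelin 1, was at 397 to 724 CPM against 27.5 to 69.3 CPM. The other higher genes were *Rab27a* (1.85) and *Rab3d* (1.01), GTPases of granule exocytosis. Stored cargo also appeared on the lower side, with *Angpt2* at 11.3 to 23.7 CPM against 40.0 to 97.5 CPM, *Igfbp7* at 36.4 to 67.6 CPM against 563 to 1207 CPM, and *Cd63* at 182 to 277 CPM against 493 to 667 CPM. *Igfbp7* was lower against the blood-vessel cells as well (-5.71), whereas *Cd63* was higher (1.33), and *Angpt2* had a mean of 12.2 CPM there. Fusion proteins such as *Vamp3*, *Vamp8*, and *Snap23* had log2 fold changes of 0.16, -0.02, and 0.34 and passed the rule in neither comparison.

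Genes of coagulation and fibrinolysis were mixed. Of 15 fitted, 3 were higher and 2 were lower (median 0.16), compared with 7.23% and 6.83% over all genes. Against the blood-vessel cells 4 of 12 were higher and 2 were lower (median 0.48), compared with 8.15% and 4.43% over all genes. *Plat*, the tissue plasminogen activator, was at 183 to 267 CPM against 15 to 44.8 CPM, *Procr*, the endothelial protein C receptor, at 65.9 to 188 CPM against 22.5 to 45.8 CPM, and *Entpd1*, the ectonucleotidase CD39 that degrades ADP, at 90.3 to 141 CPM against 7.24 to 37.8 CPM. *F8*, the factor carried by von Willebrand factor in plasma, was lower, at 4.28 to 38.5 CPM against 66.1 to 147 CPM, and at a mean of 2.83 CPM in the blood-vessel cells. *F8* mRNA was thus lower in the Vwf-high cells and in the blood-vessel cells than in the other gated cells as a whole. The other lower gene was *Plau*, the urokinase gene, at 0 to 4.5 CPM against 71.6 to 121 CPM.

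Of 19 genes of vascular tone, 9 were higher than in the other gated cells and none was lower (median 0.94). Against the blood-vessel cells 5 of 18 were higher and 2 were lower (median 0.18). The 5 were *Edn1*, *Nos3*, *Ptgis*, *Ptgs1*, and *Ptgs2*. *Nos3*, the endothelial nitric oxide synthase, was at 116 to 161 CPM against 15.2 to 57.9 CPM, and the prostacyclin synthase *Ptgis* at 145 to 230.5 CPM against 11 to 52.5 CPM. The cyclooxygenases that feed it were at 190.2 to 222 CPM against 7.5 to 37.8 CPM for *Ptgs1* and at 229 to 1185 CPM against 6.89 to 38 CPM for *Ptgs2*. These enzymes of nitric oxide and prostacyclin synthesis did not overlap between the populations. *Ace*, the angiotensin-converting enzyme, was at 590.5 to 941 CPM against 167 to 451 CPM, but the blood-vessel cells carried a mean of 1019 CPM, and there *Ace* did not pass the rule (-0.39). The 2 lower genes were *Acvrl1* (-1.10) and *Npr3* (-1.02).

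Adhesion molecules and chemokine genes were higher in 7 of 13 and lower in 1 (median 1.71), and against the blood-vessel cells higher in 4 of 11 and lower in 2 (median 0.56). Besides *Vcam1* they included *Sele*, which encodes E-selectin, at 70.2 to 232 CPM against 0 to 14.5 CPM, *Icam1* at 272 to 640.0 CPM against 93.7 to 177 CPM, *Jam2* at 291 to 353 CPM against 7.5 to 36.4 CPM, and the scavenging chemokine receptor *Ackr3* at 701 to 975 CPM against 55.1 to 247 CPM. *Ackr1*, a chemokine receptor of venules, was too low to be fitted in this comparison. It was at 7.8, 31.5, 89.9 and 71.9 CPM in control libraries 1 to 4 and 208 and 33.2 CPM in the libraries labelled knockout 1 and 2, with the highest value in the library labelled knockout 1. *Icam2* and *Cd34* were lower than in the blood-vessel cells (-1.25 and -1.23).

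Vessel wall matrix was higher in 8 of 11 genes against the blood-vessel cells, with none lower (median 2.47), while against all other gated cells 4 of 13 were higher and 4 were lower (median 0.27). *Eln*, which encodes elastin, was at 313 to 720.4 CPM against 66.9 to 145 CPM, *Fbln2* at 471 to 961 CPM against 28.5 to 81.3 CPM, the proteoglycan *Bgn* at 418 to 920.1 CPM against 35.8 to 133 CPM, and the crosslinking enzyme *Lox* at 41.1 to 97.9 CPM against 0 to 11.2 CPM. *Ltbp4* was at 1083 to 1527 CPM in Vwf-high cells and at 851 to 1247 CPM in the other gated cells, so that it differed little from those as a whole, but at a mean of 154 CPM in the blood-vessel cells. Basement membrane genes leaned the other way against the other gated cells, with 2 of 12 higher and 6 lower (median -0.89), whereas against the blood-vessel cells 3 of 9 were higher and 2 were lower (median 0.09). The collagen IV chain *Col4a2* and laminin chain *Lama4* were lower (-1.03 and -2.69), and laminin chain *Lama5* was higher (1.89). *Lama4* turned to higher against the blood-vessel cells (1.83), and *Lama5* did not pass the rule there (0.08).

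Among regulators, 4 of 10 Notch genes were higher and 2 were lower (median 0.41), and against the blood-vessel cells 2 of 9 were higher and 1 was lower (median -0.01). The Notch target *Hey2* was at 28.3 to 48.9 CPM against 0 to 3.06 CPM and the ligand *Dll1* at 135 to 241 CPM against 17.9 to 42.7 CPM, and both were higher against the blood-vessel cells too (3.00 and 1.40). Of 18 endothelial transcription factors 6 were higher and 2 were lower (median 0.41), and against the blood-vessel cells 3 of 16 were higher and 1 was lower (median 0.27). *Gata6* was at 161 to 289 CPM against 4.13 to 28.5 CPM and *Foxc1* at 83.9 to 132 CPM against 15 to 48.9 CPM, and these factors were also higher than in the blood-vessel cells (2.60 and 3.41). *Foxf1*, *Epas1*, *Gata2*, and *Sox7* were higher than in the other gated cells but not than in the blood-vessel cells (-0.84, -0.15, -0.20, and 0.35). *Erg* overlapped between the populations, at 70.2 to 85.4 CPM and 53.8 to 107 CPM.

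Of 15 genes of TGF-β and BMP signaling, 8 were higher than in the other gated cells and 2 were lower (median 1.03). The ligand *Bmp4* was at 220.1 to 379.7 CPM against 10.9 to 45.1 CPM, and the BMP targets *Id1*, *Id2*, and *Id3* had log2 fold changes of 1.88, 2.99, and 1.91. The type II BMP receptor *Bmpr2*, known from hereditary pulmonary arterial hypertension, was at 640.0 to 768 CPM against 302 to 467 CPM, and at a mean of 978 CPM in the blood-vessel cells. *Smad1* (-2.74) and *Tgfbr2* (-2.18) were lower. Against the blood-vessel cells 4 of 15 were higher, namely *Bmp4*, *Id2*, *Tgfbr2*, and *Tgfb2*, and *Acvrl1* was lower.

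Of 7 VEGF and angiopoietin genes, 3 were higher and 2 were lower than in the other gated cells (median 0.95), and 1 of 6 was higher and 1 was lower than in the blood-vessel cells (median 0.24). The receptor *Flt1* was at 815 to 1098 CPM against 104 to 355 CPM and the angiopoietin receptor *Tek* at 529 to 715 CPM against 169 to 297 CPM, while the blood-vessel cells carried means of 769 CPM and 509 CPM. *Kdr*, the main VEGF receptor and here on the aerocyte list, was lower in both comparisons, at 263 to 379 CPM against 866 to 1236 CPM. *Nrp2*, a coreceptor, was lower than in the other gated cells (-2.51) and higher than in the blood-vessel cells (4.31). Of 8 lipid genes 3 were higher and 1 was lower (median 0.59), and against the blood-vessel cells 2 were higher and 3 were lower (median -0.25). The fatty acid binding protein gene *Fabp4* was at 547, 1139.9, 584 and 283 CPM in control libraries 1 to 4 and 445 and 598 CPM in the libraries labelled knockout 1 and 2, compared with 41.6 to 149.7 CPM, and *Cd36*, the fatty acid translocase, at 643 to 1474 CPM, below the mean of 2149 CPM in the blood-vessel cells.

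Within the Vwf-high cells, UMIs of *Slc6a2* and of *Gja5* marked largely separate cells. These marker genes were picked after their values were seen, so that the division is a description. *Slc6a2* without *Gja5* was found in 531 cells (38.5%), *Gja5* without *Slc6a2* in 284 cells (20.6%), both in 3 cells (0.218%), and neither in 561 cells (40.7%). The share with *Slc6a2* alone was 21.0%, 37.4%, 40.5%, and 53.5% in control libraries 1 to 4 and 13.2% and 44.1% in the libraries labelled knockout 1 and 2. The share with *Gja5* alone was 21.5%, 24.3%, 29.7%, and 12.6% in the controls and 15.5% and 22.1% in the libraries labelled knockout. The *Slc6a2* share thus varied more than the *Gja5* share, and control library 4 had the highest of the former and the lowest of the latter. A cell in neither class may have missed a UMI of a low gene, and at 71.3% the library labelled knockout 1 had the largest share of such cells.

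The classes differed in many further genes, in the same direction in each of the 6 libraries unless said otherwise. In unscaled CPM of the class, cells with *Slc6a2* carried 2376 to 3287 of *Aqp1*, compared with 352 to 649 in cells with *Gja5*, and 3021 to 3702 of *Ctla2a*, compared with 206 to 474. *Prss23* was at 2315 to 3247 against 0 to 47.6, *Nr2f2* at 197 to 324 against 0 to 15.9, and *Gpihbp1* at 459.8 to 956 against 21.9 to 93. The venous genes *Prss23* and *Nr2f2* thus lay with *Slc6a2*. So did *Gpihbp1* and the other listed capillary genes *Plvap*, *Cd93*, *Sema3c*, *Hmcn1*, *Tmem100*, *Itga1*, and *Aplnr*. The capillary genes *Kit*, *Adgrl3*, and *Glp1r* were not higher with *Slc6a2* in each of the 6 libraries. The venous gene *Vcam1* was higher with *Slc6a2* in 4 libraries and with *Gja5* in 2 (medians 1807 and 1046). On the other side, *Efnb2*, which encodes the arterial ligand ephrin-B2, was at 686 to 928 in cells with *Gja5* against 27.1 to 74.7 in cells with *Slc6a2*. *Mgp* was at 9694 to 15329 against 102 to 1728, *Fbln2* at 1661 to 2328 against 0 to 92.5, and *Cytl1* at 2512 to 4019 against 457 to 1416. Arterial and elastic fibre genes thus lay with *Gja5*, and so did the connexin *Gja4* (medians 635 and 72.1) and *Dll4* (308 and 1.31).

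*Vwf* itself was higher in cells with *Slc6a2*, at 6016 to 7105 against 3277 to 4734. *Ptprb* was close in both, with medians of 2583 and 2864, and higher in the cells with *Gja5* in 5 of 6 libraries. *Lyve1* was present in both, at 1185 to 2033 and 2038 to 3275, and higher with *Gja5* in 6 of 6 libraries, while *Mmrn1* was at 7.29 or less in either. *Selp*, also on the venous list (medians 200.4 and 231, higher with *Gja5* in 4 of 6 libraries), and *Edn1* (466 and 530.1) had no common direction over the libraries. *Vwf* was in both classes by selection, *Ptprb* was common to both, and *Aqp1* and *Ctla2a* were higher in the cells with *Slc6a2* than in those with *Gja5*. In the cells with neither gene, the medians of *Aqp1* and *Ctla2a* were 1420 and 2273. In the library labelled knockout 1 the class with *Slc6a2* numbered 17 cells and had *Acta2* at 3818 unscaled CPM, against 183 or less in the other libraries.

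**Figure D3:**
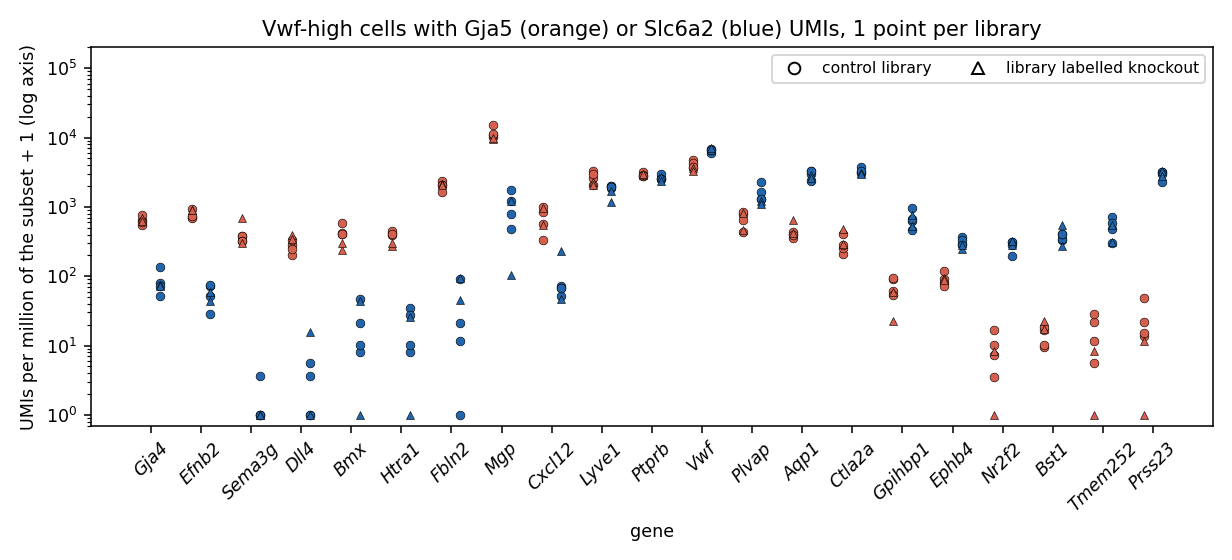
Level of each gene (x axis) in Vwf-high cells with *Gja5* UMIs only (orange) or *Slc6a2* UMIs only (blue), as unscaled CPM of the class + 1 on a log y axis, with 1 point per library. Circles are control libraries and triangles libraries labelled knockout. Genes from *Gja4* to *Lyve1* lie higher in orange, *Ptprb* overlaps, and genes from *Vwf* to *Prss23* lie higher in blue.

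The sequences before *Gja5* and *Aqp1* are shown because these genes marked opposite sides of the division. Each is the 250 bases upstream of the RefSeq start on GRCm38.p6, plus strand, 5′ to 3′ (for *Gja5* this start lies within the longer GENCODE gene), with the letters GGAAG, the core recognized by ETS factors, in capitals.
*Gja5*, chr3:97032152-97032401: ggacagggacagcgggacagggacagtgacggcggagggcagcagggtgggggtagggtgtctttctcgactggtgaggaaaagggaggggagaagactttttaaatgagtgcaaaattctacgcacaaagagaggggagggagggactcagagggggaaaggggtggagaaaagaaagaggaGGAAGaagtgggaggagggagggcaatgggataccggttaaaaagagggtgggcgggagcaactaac
*Aqp1*, chr6:55336049-55336298: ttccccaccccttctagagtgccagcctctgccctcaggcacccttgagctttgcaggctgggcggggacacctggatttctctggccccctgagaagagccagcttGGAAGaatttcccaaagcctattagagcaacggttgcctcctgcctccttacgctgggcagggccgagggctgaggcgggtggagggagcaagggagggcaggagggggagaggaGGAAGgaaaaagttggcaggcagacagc
On both strands the *Gja5* stretch held GGAAG 1 time and the *Aqp1* stretch 2 times. These letters occurred in 64.1% of 32817 promoters of that length, so that their presence sets neither gene apart. The letters GATAA (in 22.6% of promoters) and ACAAT (in 27.7%) were in neither stretch.

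The share of Vwf-high cells among gated cells was compared between the genotypes. It was 57.3%, 62.3%, 66.3%, and 62.3% in control libraries 1 to 4 (mean 62.0% ± 3.68, SD, n = 4) and 42.3% and 61.0% in the libraries labelled knockout 1 and 2 (mean 51.6% ± 13.2, SD, n = 2). The library labelled knockout 1 was the lowest of all, with a 95% exact binomial interval of 36.7% to 48.1%, and the library labelled knockout 2 lay within the controls. The difference of -10.4 percentage points did not pass the two-sided exact permutation test over 15 choices of 2 of 6 libraries (p = 0.133, the smallest possible being 0.0667). Without the library labelled knockout 1 it was -1.06, and without the library labelled knockout 2 it was -19.7. As a share of kept barcodes Vwf-high cells made up 2.48%, 3.54%, 3.01%, and 4.31% in the controls and 2.19% and 2.55% in the libraries labelled knockout. How cells were freed from the tissue and depleted of CD45+ cells can set such shares, and its part was not tested.

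**Figure D4:**
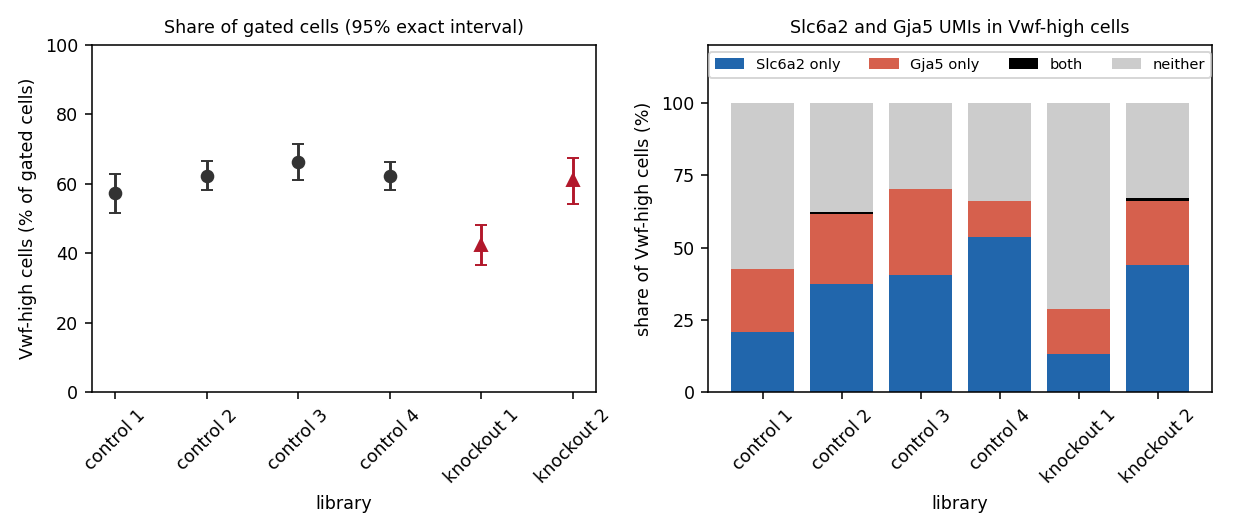
The left panel gives the share of Vwf-high cells among gated cells (y axis, percent) for each library (x axis), with 95% exact binomial intervals that cover counting error only. The right panel stacks the shares of Vwf-high cells with UMIs of *Slc6a2* only, *Gja5* only, both, or neither. The library labelled knockout 1 has the lowest share on the left (42.3%) and the largest class with neither gene on the right (71.3%).

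The genotypes were then compared within the Vwf-high cells. No gene of 8917 (0%) reached an adjusted p under 0.05 in edgeR (quasi-likelihood, Benjamini-Hochberg). At an unadjusted p under 0.05 there were 464 genes (5.2%), and DESeq2 called 1 gene. Without the library labelled knockout 2 there were 13 calls by edgeR. The libraries of the groups did not overlap for 590 higher genes (6.62%) and 829 lower genes (9.3%). *Vwf*, the selecting gene, had a mean of 5601 CPM ± 183 (SD, n = 4) in controls and of 5114 CPM ± 535 (SD, n = 2) under the knockout label, and the groups overlapped. The 4 red blood cell genes fitted had a median log2 fold change of -8.31, with control library 4 as given above.

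The genes of smallest p were named although none passed. *Klf2*, a transcription factor that laminar flow raises in endothelium, was at 3332, 4074, 4598 and 3920.4 CPM in control libraries 1 to 4 and 1961 and 2407 CPM in the libraries labelled knockout 1 and 2. Both libraries labelled knockout lay below every control, with a log2 fold change of -0.87 ± 0.16 (SE, adjusted p = 0.553 by edgeR's quasi-likelihood test, exact permutation p = 0.0667, the smallest possible). Its relative *Klf4* had -0.64, again with no overlap. Lower genes without overlap made up 9.3% of all genes, and *Klf2* was picked by its small p in the same comparison. *Igfbp6*, an IGF-binding protein, was at 36.4, 48.8, 47.7 and 48.6 CPM in control libraries 1 to 4 and 6.06 and 19.3 CPM in the libraries labelled knockout 1 and 2 (log2 fold change -1.85 ± 0.34, adjusted p = 0.553 by the same edgeR test). The difference rests on 17 UMIs in the libraries labelled knockout. *Ptpru*, *Lhfp*, and *Clec3b* were the other 3 lower genes (-1.01, -1.08, and -1.56). *Igfbp6* and *Clec3b* are also known from adventitial fibroblasts. Of 5 fibroblast genes fitted 0 were positive and 2 had an unadjusted p under 0.05 (median -0.95). The sum of the 8 listed, led by *Dcn* and with 3 under 10 CPM, was 279.6, 390.5, 203 and 256 CPM in the controls and 72.5 and 213 CPM in the libraries labelled knockout, and the part of fibroblast RNA in these differences was not tested.

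On the higher side *Serpina3g*, a serine protease inhibitor known to respond to interferon, was at 38.9, 37.9, 53.5 and 44.7 CPM in control libraries 1 to 4 and 114 and 80.3 CPM in the libraries labelled knockout 1 and 2 (log2 fold change 1.15 ± 0.20, adjusted p = 0.553 by edgeR's quasi-likelihood test). *H2-DMa*, a class II chaperone, had 1.44, *Tifa* 1.18, *Gadd45g* 0.71, and *Junb* 0.59, each with an adjusted p of 0.923 by edgeR. The groups did not overlap for any of these 5, which were picked by their small p in the same comparison. Higher genes without overlap made up 6.62% of all genes. *H2-DMa* was highest in the library labelled knockout 1 (86.3 CPM), as was *Cd74*, whose value there is given above. In the library labelled knockout 2 *H2-DMa* was at 47.6 CPM. The part of the library labelled knockout 1 in the difference was not tested.

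Gene lists are given by their counts beside all genes, whose median log2 fold change was -0.02. Of 15 class I histocompatibility genes 14 were positive, compared with 4131 of 8917 over all genes, and 4 had an unadjusted p under 0.05 (median 0.38). Their summed level was 8302, 7234, 11036 and 11335 CPM in the controls and 15685 and 10139.9 CPM in the libraries labelled knockout, so that the highest value belonged to the library labelled knockout 1 and the library labelled knockout 2 lay within the controls. Of 16 interferon response genes all 16 were positive and 5 had an unadjusted p under 0.05 (median 0.45). Their sum was 1105, 1027, 1903 and 1606 CPM in the controls and 2402 and 1455 CPM in the libraries labelled knockout, again with the library labelled knockout 2 within the controls. *Ifit3* had 1.14 and *Iigp1*, an interferon-inducible GTPase, 1.05, neither past an adjusted p of 0.05.

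Of 17 immediate early and heat shock genes that respond to tissue dissociation, 13 were positive and 9 had an unadjusted p under 0.05 (median 0.28). Their sum was 17143, 16363, 20316 and 17561 CPM in the controls and 26725 and 21626 CPM in the libraries labelled knockout, and both libraries labelled knockout lay above every control. In the other gated cells the same sum was 12546, 13646, 13788 and 14426 CPM in the controls and 12296 and 10082 CPM in the libraries labelled knockout, where both lay below every control. *Fosb* had 1.16, *Egr1* 0.73, and *Zfp36* 0.60, while *Nr4a1* had -0.54. The part of handling of the tissue in these values was not tested. Of 18 zinc transport and binding genes 3 were positive (median -0.22), and *Slc39a9* had the only unadjusted p under 0.05 (0.60). The metallothioneins *Mt1* and *Mt2*, which zinc induces, had -0.46 and -0.40.

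Whether the genotype difference in Vwf-high cells differed from that in the other gated cells was the last test, an interaction term in edgeR fitted beside a term for each library. An adjusted p under 0.05 was reached by 6 of 9082 genes (0.0661%), all with a more positive difference in the Vwf-high cells. The immediate early and heat shock genes listed above had such a difference in 17 of 17 (median 0.65). Over all genes 4572 of 9082 had one (median 0.004). Of the 6 genes, *Zfp36* and *Egr1* are on that list, and the part of handling of the tissue in the calls was not tested. *Zfp36*, which encodes the mRNA-destabilizing protein tristetraprolin, was at 1097, 1400.4, 1633 and 1349.7 CPM in control libraries 1 to 4 and 2354 and 1799.6 CPM in the libraries labelled knockout 1 and 2 in Vwf-high cells. In the other gated cells it was at 616, 694, 731 and 567 CPM in control libraries 1 to 4 and 478 and 363 CPM in the libraries labelled knockout 1 and 2. It was thus above the controls in the former and below them in the latter, and the difference of the log2 fold changes was 1.24 ± 0.16 (SE, adjusted p = 0.00234 by edgeR).

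*Tm4sf1*, a membrane protein of endothelial cells, was at 3255, 3533, 4005 and 3147 CPM in control libraries 1 to 4 and 3947 and 4007 CPM in the libraries labelled knockout 1 and 2 in Vwf-high cells, where the groups overlapped. In the other gated cells it was at 598, 744, 744 and 755 CPM in control libraries 1 to 4 and 351 and 388 CPM in the libraries labelled knockout 1 and 2, and both libraries labelled knockout lay below every control. The interaction of *Tm4sf1* (1.14, adjusted p = 0.00234 by edgeR) therefore came mainly from the other gated cells. The same held for *Cyr61*, a matrix-associated immediate early gene, and for *Apoe*, which encodes apolipoprotein E. In the other gated cells *Cyr61* was at 1072, 1214, 1055 and 828 CPM in control libraries 1 to 4 and 242 and 415 CPM in the libraries labelled knockout 1 and 2, and *Apoe* was at 179, 339, 373 and 192 CPM in control libraries 1 to 4 and 42.7 and 113 CPM in the libraries labelled knockout 1 and 2. Their log2 fold changes were -0.29 and -0.34 in Vwf-high cells and -1.67 and -1.88 in the other gated cells. *Egr1* and *Gadd45g* were positive in Vwf-high cells (0.73 and 0.71) and negative in the other gated cells (-0.31 and -1.07).

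These 6 calls were not all kept when the comparison cells or single libraries were changed. Of the 6, 3 remained without the library labelled knockout 2 and 4 without control library 3. No gene passed without the library labelled knockout 1 (where 1 library of that label was left and the log2 differences of the 6 were 1.04 to 2.41), with a *Vwf* threshold of 5 UMIs, or when cells with lymphatic markers were left out of the comparison. Genes with an unadjusted p under 0.05 then numbered 543, 528, and 429. The log2 differences of the 6 were 1.06 to 1.78 in the full comparison, 0.82 to 1.37 with the threshold of 5 UMIs, and 0.42 (*Cyr61*) to 1.101 (*Egr1*) without the cells with lymphatic markers. The share of the other gated cells with lymphatic genes, given above, was lower in the libraries labelled knockout than in 3 of the controls. In the opposite direction, *Sox4*, *Serinc5*, *Fbxl14*, *Aqp1*, and *Pcdh1* had the smallest p, and none passed (adjusted p from 0.20 to 0.365 by edgeR). *Aqp1* had -0.22 in Vwf-high cells and 0.38 in the other gated cells.

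**Figure D5:**
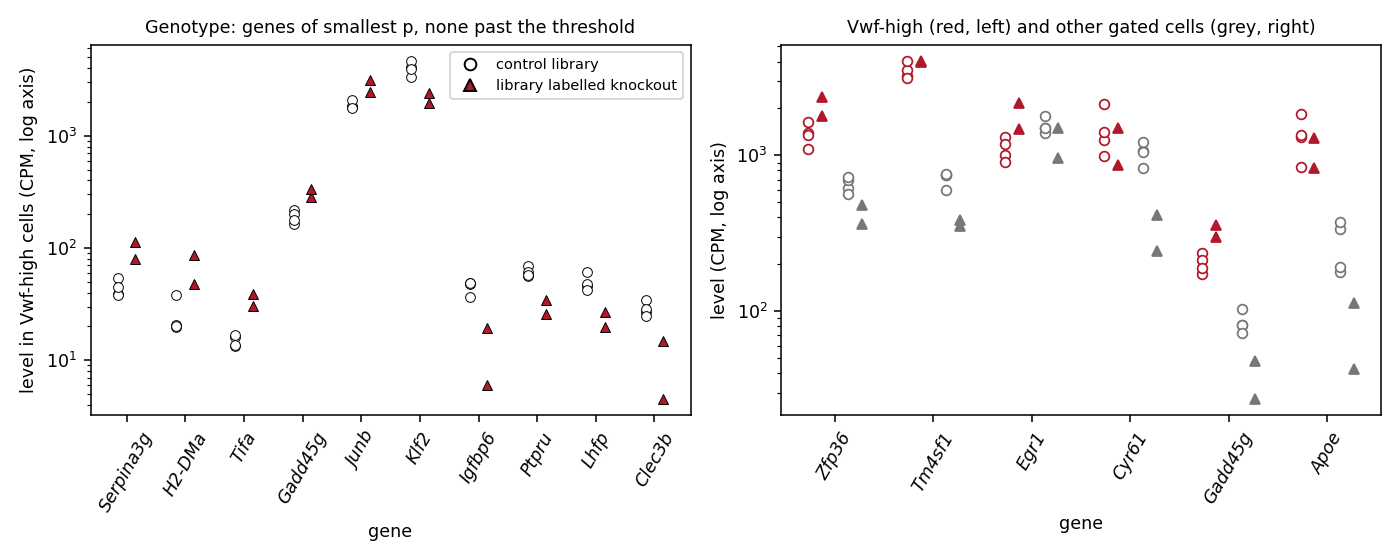
The left panel gives the level (CPM, log y axis) of the 10 genes of smallest p for genotype in Vwf-high cells, with white circles for control libraries and red triangles for libraries labelled knockout. The right panel gives the 6 genes of the interaction, with Vwf-high cells in red at the left and other gated cells in grey at the right of each gene, open circles for controls and filled triangles for libraries labelled knockout. *Klf2* is lower in both libraries labelled knockout on the left, and *Tm4sf1*, *Cyr61*, and *Apoe* are lower in the grey triangles on the right.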

How the data were processed

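Raw UMI counts per gene and barcode, deposited by the authors as 1 matrix of 27998 genes per library, were used. Per the methods, reads were aligned to mm10 with Cell Ranger, and the labels' processing notes also name Seurat. Versions are not given in the sources used here, and the smallest deposited barcode held 500 UMIs. Cells were filtered and gated as stated, with no doublet caller, since genes of other cell types were part of the gate. Free RNA was not removed. UMIs were summed per library and population, so that cells were not replicates.

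Sums were fitted with edgeR 4.0.16 in R 4.3.3 (filterByExpr, TMM, quasi-likelihood test, Benjamini-Hochberg adjustment over all genes tested). The 10 genes of the selection rule had no test. The SE is that of the same fit. Shares and single genes were compared by two-sided exact permutation, on log2(CPM + 1) for genes. The fits were tested on simulated data for each comparison. Alternatives used DESeq2 1.42.0, other scalings, filters, thresholds, depths (cells thinned to 2000 UMIs, which left out 219 Vwf-high and 273 other gated cells), and comparison cells, and left out each library in turn. Intervals cover counting error only. Coordinates are GENCODE genes on GRCm38, the build called mm10, and promoters are from RefSeq.

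Members, markers, the 32 gene lists, and the rule for named genes were chosen with earlier results of these data known. The rule named the 15 genes of smallest adjusted p per direction (same sign in 6 of 6 libraries, at least 20 CPM) for the contrast with other gated cells, 5 per direction for genotype and interaction where few passed, and the listed genes. Genes of the division by *Slc6a2* and *Gja5*, and those shown for libraries that stood apart, were chosen after their values were seen. A gene that the rule named is not reported here.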

Additional observations from a re-analysis of the deposited data

Results flagged for a closer look

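Of 65 values checked for a control library far from the other 3 by Dixon's ratio, 6 were picked out, and chance alone picks about 1 in 20. In control library 4 the summed red blood cell genes were at 13031 CPM in Vwf-high cells, *Cd200* was at 1085 CPM against 1200.4 to 1211 CPM, and *H2-DMa* was at 41.1 CPM against 21.0 to 22.1 CPM. In control library 3 *Dkk2* was at 100.5 CPM against 62.4 to 66.5 CPM, and *Junb* was at 2225 CPM against 1907 to 1950.4 CPM. In control library 1 *Igfbp6* was at 39.0 CPM against 50.7 to 52.2 CPM. These levels are scaled over both populations together and so differ from those of the genotype fit.

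The genotype difference in Vwf-high cells exceeded that in the other gated cells for 6 genes by the interaction test, by 1.24 for *Zfp36*, 1.14 for *Tm4sf1*, 1.06 for *Egr1*, 1.42 for *Cyr61*, 1.78 for *Gadd45g*, and 1.55 for *Apoe* on the log2 scale. None of these remained among the calls without the library labelled knockout 1.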

How the results depend on the processing

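For the contrast with the other gated cells, 1107 genes passed the rule, and leaving out each library in turn gave 1084 to 1161. Without a filter on low counts there were 1894 (862 higher and 1032 lower), with cells thinned to 2000 UMIs 692 (377 and 315), and by adjusted p alone 2761 (1513 and 1248). Against cells without *Prox1* there were 705 (269 lower), and against cells without lymphatic markers 758 (267 lower), the latter comparison being chosen after seeing the data. Scaling to total UMIs, which put the median log2 fold change at -0.15 instead of 0.02, turned the split to 457 higher and 668 lower. Against cells without lymphatic markers *Gng11* was close to 0 (0.00503), while *Lama4*, *Nrp2*, and *Cd63* turned from lower to higher (1.83, 4.31, and 1.33), as did *Tgfbr2*.

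For genotype, 0 genes passed, with 0 to 13 when a library was left out. There were 13 (10 higher and 3 lower) without the library labelled knockout 2, 1 (lower) without control library 4, 1 (lower) by DESeq2, and 21 (17 higher and 4 lower) without a filter on low counts. Where a group keeps 1 library, its spread is taken from the other group. With the replicate number as a block there were 38 (23 higher and 15 lower). The libraries share only a number, the deviations of same-numbered libraries correlating at 0.035 and 0.085.

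For the interaction, 6 genes passed, with 0 to 24 when a library was left out (24, with 22 higher and 2 lower, without control library 4, and 0 without the library labelled knockout 1). There were 11 by DESeq2, 18 with the stricter cell filter (1000 genes, 10% mitochondrial UMIs), 79 without a filter on low counts (73 higher and 6 lower), 0 with a *Vwf* threshold of 5 UMIs, and 0 against cells without lymphatic markers. Against cells without *Prox1* 4 passed, of which 0 were among the 6. Of the 6, 2 remained with cells thinned to 2000 UMIs, and 4 without the 10% of cells with most UMIs or with comparison cells matched on UMIs. The cause of these differences was not tested. The share difference kept its direction in all alternatives, from -19.7 to -1.06 percentage points when a library was left out. Leaving out the barcodes found in more than 1 library gave 1110, 0, and 6 genes in the 3 fits and a share difference of -10.7 percentage points. With 2 libraries labelled knockout, the spread between them limits what could be detected.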

Other observations

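The class without UMIs of *Slc6a2* or *Gja5*, 561 Vwf-high cells, lay between the other classes in several genes. In unscaled CPM its median was 1420.2 for *Aqp1*, 3857 for *Mgp*, and 841 for *Prss23*. *Fabp4* was at a median of 884 in this class and 468 in cells with *Slc6a2*, but its highest value in cells with *Gja5* was 2.11. *Ackr1* was at 0 in the cells with *Gja5* of all 6 libraries and reached 239 in the class with neither gene.

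*Vwf* UMIs were not limited to gated cells. Of the kept barcodes, 2259 had at least 3 *Vwf* UMIs, of which 1388 were in the gate. The gate asked for no UMI of 4 genes of other cell types, and of 3402 kept barcodes with at least 3 endothelial genes, 641 held *Col1a2*, 528 *Lamp3*, 134 *Foxj1*, and 20 *Ptprc*. The composition of the barcodes outside the gate was not analysed.

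Several genes had no UMI in any Vwf-high cell while being present in the other gated cells. Counted against a floor of 3 UMIs over all Vwf-high cells, *Mrc1*, the mannose receptor, was at least 730.6-fold lower on 1194 UMIs in the other gated cells, and *Ptx3*, which encodes pentraxin 3, at least 722-fold lower on 1180 UMIs. *Btnl9* was at least 367-fold lower. Of the other gated cells of a library, 50% to 78.9% carried lymphatic genes, and the part of those cells in these differences was not tested.

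Other lists, against the other gated cells, gave few genes past the rule, by which 7.23% of all genes were higher and 6.83% were lower. Class I histocompatibility genes had 0 of 15 higher and 0 lower (median log2 fold change 0.56), interferon response genes 4 of 16 higher and 1 lower (0.62), zinc genes 0 of 17 higher and 1 lower (0.02), p53 targets 0 of 8 higher and 1 lower (-0.13), and AEC2 genes 0 of 8 in either direction (-0.04). By adjusted p alone 13 of the 15 class I genes were higher, compared with 1513 of 7872 over all genes. Against the blood-vessel cells the class I median was -0.41 and the interferon median -0.07. There 7 of 15 class I genes were lower by adjusted p alone, compared with 532 of 6021 over all genes. Of 17 dissociation response genes 4 were higher, *Atf3*, *Ier3*, *Hspa1a*, and *Zfp36* (median 0.51), and 8 were higher against the blood-vessel cells (median 0.93). Fibroblast genes had 1 of 4 higher (*Col3a1*), smooth muscle and pericyte genes 1 of 1 (*Tagln*), and of 5 mesothelial genes 4 were under 10 CPM in Vwf-high cells.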
